A study of Homo sapiens with 12 samples.

Results

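The genes described here encode the collagens, the laminins and fibronectin. They were taken from the deposited expression table as every protein-coding gene named as a collagen alpha chain or as a laminin alpha, beta or gamma chain, plus FN1. This gave 57 of 62753 genes, made up of 44 collagen genes, 12 laminin genes and FN1. With an expressed gene defined as one with a mean of at least 1 FPKM over 12 libraries, 27 of the 57 were expressed (17 collagens, 9 laminins and FN1) and 30 were not (27 collagens and 3 laminins). FPKM is a read count scaled by gene length and by the depth of the library. At the edge of that limit COL5A2 averaged 1.01 FPKM and was inside, and COL9A2 averaged 0.922 FPKM and was outside. COL2A1, COL4A5, COL14A1, COL23A1 and COL5A2 averaged under 1 FPKM in the control group and were expressed through the other groups.

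RNA was measured in H9 cells, an established line of human embryonic stem cells held in a naive state in PXGL medium, which contains PD0325901, XAV939, Gö6983 and LIF, on a layer of mouse embryonic fibroblasts. The siOGA group is labelled OGA knockdown, the siP300 group EP300 knockdown, the siP300+OGA group OGA overexpression, and the siNC group WT, with 3 libraries in each of the 4 groups. From the name, siP300+OGA also received the siRNA to EP300, and no label describes the construct behind its OGA. All groups share the cell line and the medium, although the titles of the siP300+OGA libraries lack the word PXGL. OGA takes the single sugar O-GlcNAc off nuclear and cytoplasmic proteins, while EP300 acetylates histones and acts as a coactivator of transcription. Separate cultures are not stated for the 3 libraries within each group, so p-values measure the spread between these libraries, which may be technical.

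Collagens are triple helices of alpha chains, and chains of a type are built in the endoplasmic reticulum before they are secreted. The fibrillar types form the fibres of connective tissue, type IV forms the network of basement membranes, and the other types link, anchor or decorate these. Laminins are cross-shaped trimers of 1 alpha, 1 beta and 1 gamma chain that start basement membrane assembly, and fibronectin is a dimer that cells assemble into fibrils through integrins. In the early embryo a basement membrane lies between the epiblast and the hypoblast, and human pluripotent cells are commonly grown on laminins or vitronectin.

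The reads recovered from the FPKM values came to 16238225 to 18714572 in genes per library, and 1 read in a gene of 1 kb was worth 0.0518 to 0.0647 FPKM. OGA averaged 8.10 ± 0.77 FPKM in siOGA and 40.6 ± 0.43 FPKM in siNC (log2 difference -2.19, adjusted p = 2.04e-10). EP300 averaged 13.3 ± 0.11 FPKM in siP300, 15.4 ± 0.33 FPKM in siP300+OGA and 23.2 ± 0.35 FPKM in siNC (log2 differences -0.76 and -0.56). EP300 was higher in siP300+OGA than in siP300 (0.20, adjusted p = 0.000182). The part of this in other differences between siP300+OGA and siP300 was not tested. OGA in siP300+OGA stood at 43.8 ± 0.74 FPKM and did not pass against siNC (0.11, adjusted p = 0.11) or against siP300 (0.13, adjusted p = 0.0636). Log2 differences are between means of log2(FPKM + 1), from limma with p-values adjusted by Benjamini-Hochberg over 13166 genes, and they understate the change of genes with low values. Calls were made at an adjusted p under 0.05. Of the gene lists used below, all were chosen with earlier results of these data known.

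Sequences upstream of 4 loci are shown for description. The pairs COL4A1 with COL4A2 and COL4A5 with COL4A6 are transcribed away from each other. These genes were called higher together in siOGA, siP300 and siP300+OGA against siNC (COL4A6 in a fit with no minimum). FN1 and LAMB2 were high in different groups. No link between upstream sequence and expression was tested. The sequences come from RefSeq on GRCh38.p14, read 5′ to 3′ on the strand given, and 42 of the 57 genes and 17 of the 27 expressed ones matched the promoter table. Capitals mark matches, on either strand, to CCAAT (the box bound by NF-Y), GGGCGG (the GC box of SP1), TATAAA (the TATA box), GGAATG (the TEAD motif) and CAGAC (an SMAD motif), with overlapping matches all counted. The CArG box, the site of serum response factor, was searched too.
COL4A1-COL4A2, chr13:110307158-110307283, plus strand, the whole stretch between the starts: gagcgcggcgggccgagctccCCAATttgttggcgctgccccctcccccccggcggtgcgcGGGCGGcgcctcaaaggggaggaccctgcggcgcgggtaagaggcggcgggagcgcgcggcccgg
COL4A5-COL4A6, chrX:108439588-108439837, plus strand, ending at the start of COL4A5: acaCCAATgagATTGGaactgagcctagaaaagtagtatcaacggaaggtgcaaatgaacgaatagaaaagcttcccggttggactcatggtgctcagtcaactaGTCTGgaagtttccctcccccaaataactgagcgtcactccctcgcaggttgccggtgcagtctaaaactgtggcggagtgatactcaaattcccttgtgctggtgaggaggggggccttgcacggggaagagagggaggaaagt
FN1, chr2:215436069-215436318, minus strand, ending at the RefSeq start of FN1: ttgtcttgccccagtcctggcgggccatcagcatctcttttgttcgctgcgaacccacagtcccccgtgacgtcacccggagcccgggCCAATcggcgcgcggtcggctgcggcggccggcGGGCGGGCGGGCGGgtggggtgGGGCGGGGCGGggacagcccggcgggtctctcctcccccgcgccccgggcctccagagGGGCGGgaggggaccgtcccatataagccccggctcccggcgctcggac
LAMB2, chr3:49133051-49133300, minus strand, ending at the RefSeq start of LAMB2: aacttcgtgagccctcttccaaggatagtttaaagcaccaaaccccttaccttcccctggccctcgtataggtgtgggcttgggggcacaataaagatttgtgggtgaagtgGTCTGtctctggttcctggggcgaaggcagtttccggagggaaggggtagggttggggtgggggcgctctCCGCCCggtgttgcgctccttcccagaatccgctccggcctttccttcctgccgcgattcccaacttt

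In RefSeq the COL4A1 and COL4A2 starts lay 126 bases apart, and those bases were 80.2% G or C and held 1 CCAAT and 1 GGGCGG. The COL4A5 and COL4A6 starts lay 379 bases apart, of which the 250 before COL4A5 held 2 CCAAT and 1 CAGAC. Upstream of FN1 there were 1 CCAAT and 6 GGGCGG, and upstream of LAMB2 1 GGGCGG and 1 CAGAC. Over the 250 bases before the start, CCAAT occurred in 32% of 35114 RefSeq promoters and in 5 of the 17 expressed genes matched, and GGGCGG in 42.6% and in 14 of 17. TATAAA occurred in 10.7% and in 3 of 17 (COL18A1, COL6A2 and COL7A1), GGAATG in 11.9% and in 1 of 17 (LAMA2), CAGAC in 38% and in 5 of 17, and the CArG box in 1.16% and in 0 of 17. A gene was counted here if any of its promoters matched, while the shares over RefSeq are per promoter. Per promoter, of the 21 of these 17 genes, 5 held CCAAT, 18 GGGCGG, 3 TATAAA, 1 GGAATG, 5 CAGAC and 0 the CArG box. A match describes letters only, and no match says that they are not in this window.

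The expressed genes spanned from 1.01 to 56.5 FPKM averaged over the 12 libraries, and 9 of them averaged at least 10 FPKM. LAMC1, the gamma chain of most laminins, was highest, followed by LAMA5 (40.6 FPKM), COL9A3 (30.5 FPKM), COL6A1 (30.0 FPKM) and FN1 (22.2 FPKM). The order depends on the gene length used. The listed length of LAMB1 was 2.28 times that of its exons in GENCODE v29, and per kilobase of the longest coding transcript LAMB1 stood at 25.1 and rank 6, against 7.77 FPKM and rank 10 as deposited. For LAMA2 the listed length was 2.55 times that of its exons, and it stood at 3.17 per transcript, against 1.16 FPKM as deposited. Per transcript, COL9A2 (1.36) and COL4A6 (1.05), counted here as not expressed, also averaged at least 1. Summed over the 57 genes, the FPKM came to 332.8 ± 12.6 in siOGA, 319.8 ± 3.93 in siP300, 287 ± 1.63 in siP300+OGA and 270.1 ± 13.1 in siNC (SD, n = 3 each). FN1 made up 13.7 ± 0.99% of that sum in siOGA, 4.41 ± 0.24% in siP300, 4.66 ± 0.15% in siP300+OGA and 5.82 ± 0.23% in siNC.

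**Figure D1:**
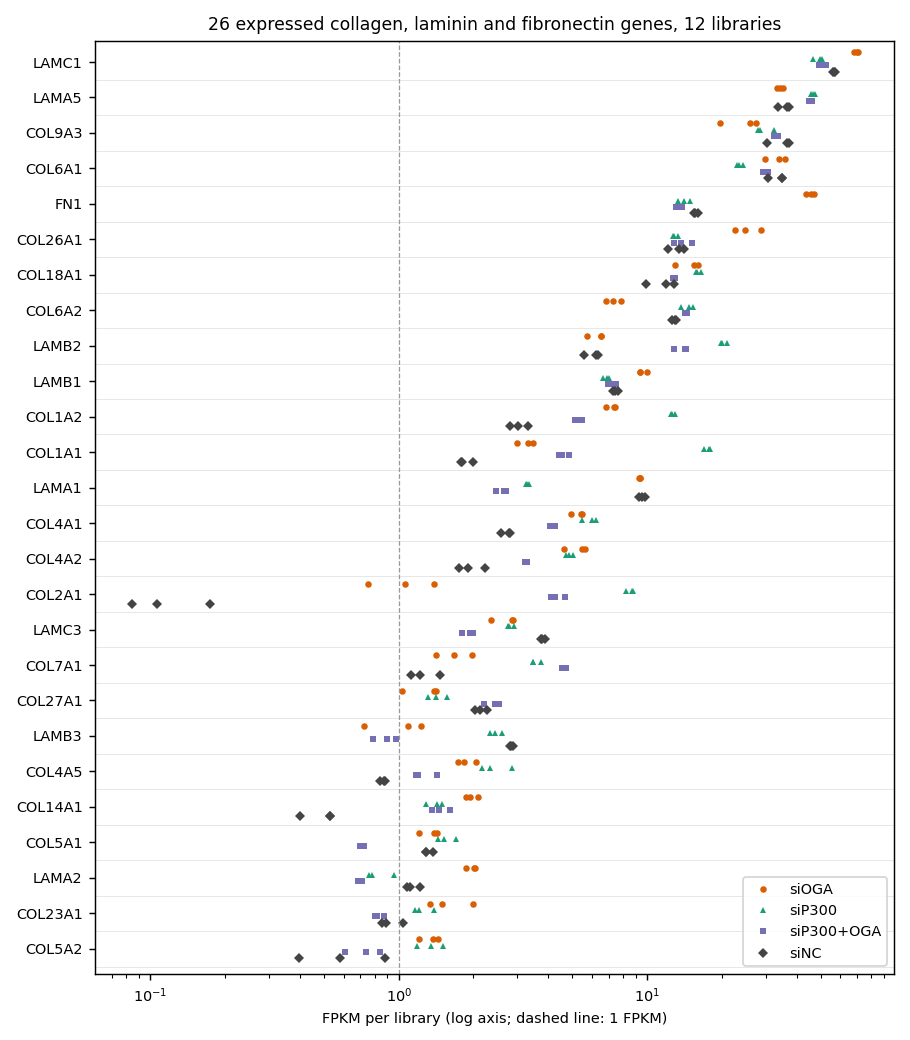
FPKM of 26 expressed genes in each of the 12 libraries, on a log axis, ordered by mean, with a row per gene and 4 marker shapes for the groups siOGA, siP300, siP300+OGA and siNC (3 libraries each). The siOGA libraries of FN1 lie between 43.6 and 47.1 FPKM, above all others, and COL2A1 spreads from under 0.2 FPKM in siNC to over 8 FPKM in siP300.

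Changes in these genes were common in each comparison, as they were among all genes. In siOGA against siNC, 22 of the 27 expressed genes were called (81.5%), 17 higher and 5 lower, where 66.9% of the 13166 tested genes were called (34% higher and 32.9% lower). Their median log2 difference was 0.32, against 0.00 for all tested genes. In siP300 against siNC 22 were called, 14 higher and 8 lower, where 65.9% of all were called (30.2% higher and 35.7% lower), with a median of 0.23 against -0.04. In siP300+OGA against siNC 19 were called (70.4%), 12 higher and 7 lower, where 60.9% of all were called (30.8% higher and 30.2% lower), with a median of 0.11 against 0.00. These 3 comparisons share the siNC libraries. The 27 include COL2A1, COL4A5, COL14A1, COL23A1 and COL5A2, which averaged under 1 FPKM in siNC and passed the minimum through other groups. All were called higher in siOGA, and all but COL23A1 in siP300, against siNC. These genes could enter only by being higher outside siNC, so part of the rise in these counts and medians follows from the minimum.

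In siP300+OGA against siP300 the calls went mostly down: 4 of 27 were higher and 14 lower, where 27% of all tested genes were higher and 21.2% lower, out of 48.2% called. The median was -0.25, against 0.03 for all genes. LAMB3, COL5A1, LAMA2, COL23A1 and COL5A2 averaged under 1 FPKM in siP300+OGA and passed the minimum through other groups. All but LAMA2 were among those called lower, so part of this fall may follow from the minimum. In siOGA against siP300, 8 were higher and 12 lower (74.1% called), and 74.1% of all genes were called too (39.3% higher and 34.8% lower), with medians of -0.11 and 0.04. Called differences of at least 1 on the log2 scale, in either direction, numbered 3 of 27 in siOGA against siNC (11.1%, with 6.73% of all genes), 6 in siP300 against siNC (22.2%, with 7.59%) and 5 in siP300+OGA against siNC (18.5%, with 4.98%). They numbered 2 in siP300+OGA against siP300 (7.41%, with 1.8%) and 5 in siOGA against siP300 (18.5%, with 11.5%). Libraries of the groups did not overlap for 16 higher and 5 lower genes in siOGA against siNC, where this held for 68.6% of all tested genes (35.1% higher and 33.5% lower), and for 16 higher and 9 lower in siP300 against siNC, with 70.9% of all (32.6% higher and 38.3% lower). It held for 12 higher and 7 lower in siP300+OGA against siNC, with 67.7% of all (34% higher and 33.6% lower). It held for 5 higher and 15 lower in siP300+OGA against siP300, with 59.6% of all (33.3% higher and 26.3% lower), and for 8 higher and 13 lower in siOGA against siP300, with 75% of all (39.6% higher and 35.4% lower). These are bulk samples, so fewer cells that make a transcript and less of it per cell cannot be told apart.

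**Figure D2:**
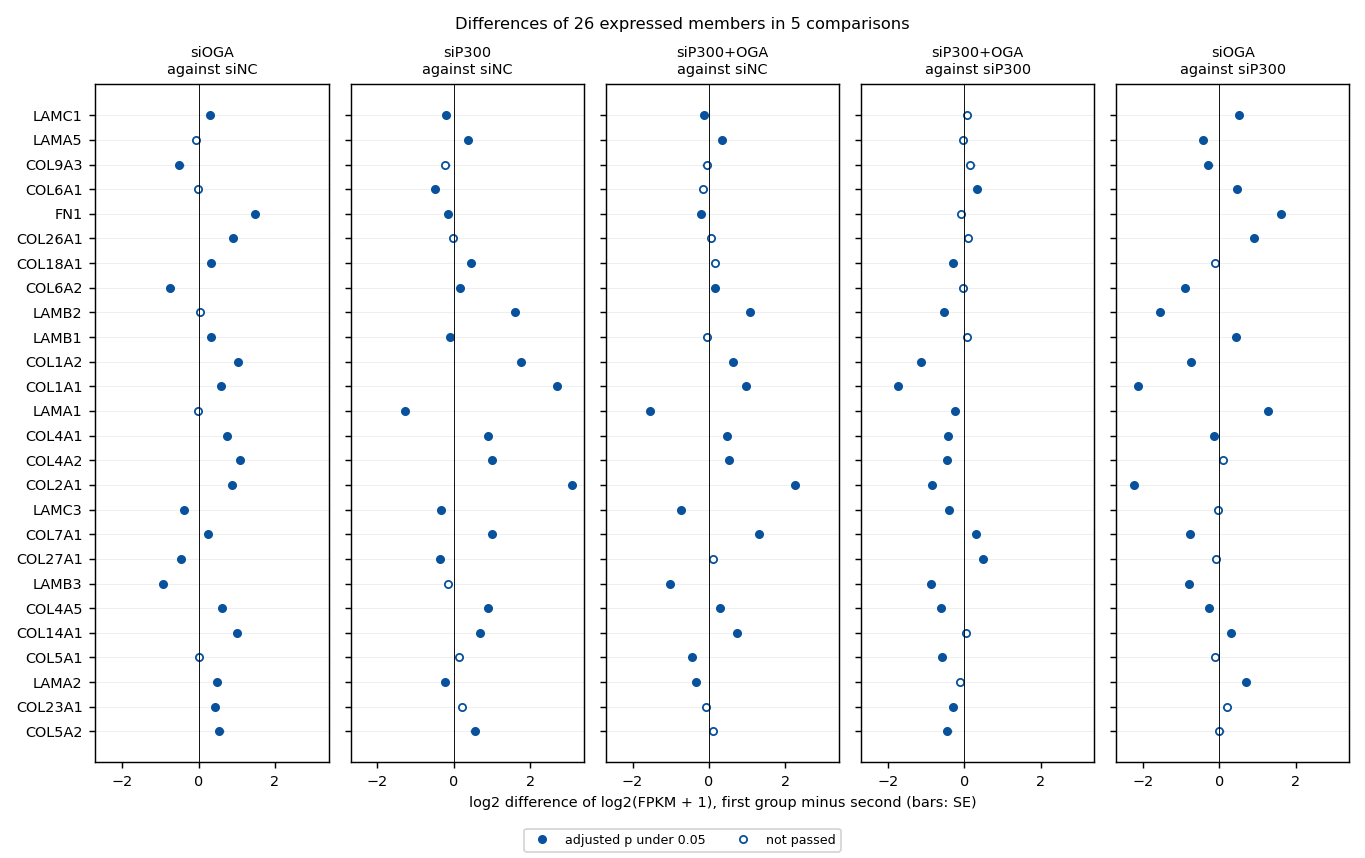
Differences of log2(FPKM + 1) for 26 expressed genes in 5 comparisons, the first group minus the second, with filled points for an adjusted p under 0.05 and open points for those that did not pass. Bars are standard errors from limma and are mostly shorter than the points. COL2A1 and COL1A1 lie farthest right in siP300 against siNC (3.09 and 2.70), and FN1 in siOGA against siNC (1.48).

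Among the fibrillar collagens, the type I and type II chains were highest in siP300. Of 11 fibrillar genes 6 were expressed: 4 rose and 1 fell in siOGA, 4 rose and 1 fell in siP300, and 3 rose and 1 fell in siP300+OGA, each against siNC (medians 0.56, 1.15 and 0.37). Of all tested genes 34%, 30.2% and 30.8% rose and 32.9%, 35.7% and 30.2% fell, in the same order. COL2A1 and COL5A2, 2 of the 6, averaged under 1 FPKM in siNC. Against siP300, 5 of the 6 fell and 1 rose in siP300+OGA (median -0.71), where 21.2% of all genes fell and 27% rose. COL5A1 and COL5A2 averaged under 1 FPKM in siP300+OGA. COL1A1, the more abundant chain of type I collagen in its usual trimer (ENSG00000108821, chromosome 17, 50184101 to 50201632, minus strand), had 3.47, 3.33 and 3.01 FPKM in siOGA, 17.7, 16.9 and 18.0 in siP300, 4.87, 4.54 and 4.41 in siP300+OGA, and 1.79, 1.99 and 1.80 in siNC. The siP300 libraries were the highest, followed by siP300+OGA, siOGA and siNC, and no library of a group overlapped another group. The log2 difference was 2.70 (SE 0.054, adjusted p = 1.81e-11) in siP300 against siNC, a 9.42-fold ratio of mean FPKM, and it ranged from 1.71 to 3.28 over 23 alternatives. It was 0.97 in siP300+OGA and 0.58 in siOGA against siNC, and in siP300+OGA against siP300 COL1A1 fell by 1.72 on the log2 scale (adjusted p = 2.43e-09).

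COL1A2, the second chain of type I collagen (ENSG00000164692, chromosome 7, 94394895 to 94431227, plus strand), had 7.35, 7.46 and 6.82 FPKM in siOGA, 12.9, 12.5 and 12.6 in siP300, 5.12, 5.24 and 5.46 in siP300+OGA, and 3.33, 3.01 and 2.80 in siNC. Here siOGA stood above siP300+OGA, the reverse of COL1A1, and the 4 groups again did not overlap. The log2 difference was 1.76 (SE 0.052, adjusted p = 2.96e-10) in siP300, 0.63 in siP300+OGA and 1.02 (SE 0.052, adjusted p = 2.69e-08) in siOGA, each against siNC, and -1.12 in siP300+OGA against siP300. The ratio of COL1A1 to COL1A2 was 0.453 ± 0.017 in siOGA, 1.38 ± 0.038 in siP300, 0.875 ± 0.072 in siP300+OGA and 0.614 ± 0.067 in siNC (SD, n = 3 each), on FPKM per listed gene length. The groups did not overlap in this ratio, and 3 libraries against 3 cannot give an exact two-sided permutation p below 0.1. Per kilobase of the longest coding transcript, COL1A1 stood at 23.45 and COL1A2 at 25.28 in siP300, so COL1A1 was not the higher of the pair there.

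COL2A1, the collagen of cartilage and notochord (ENSG00000139219, chromosome 12, 47972967 to 48004554, minus strand), was close to silent in control cells. It had 1.39, 1.06 and 0.755 FPKM in siOGA, 8.20, 8.79 and 8.67 in siP300, 4.28, 4.10 and 4.65 in siP300+OGA, and 0.106, 0.0842 and 0.175 in siNC. The siNC values rest on 43 reads in all 3 libraries and the siP300 values on 3157 reads, and no group overlapped another. The log2 difference was 3.09 (SE 0.096, adjusted p = 4.51e-10) in siP300, 2.25 in siP300+OGA and 0.87 in siOGA, each against siNC, and -0.84 in siP300+OGA against siP300. Over 22 alternatives, which include other constants added before the log, the siP300 value ranged from 1.40 to 6.20. Genes of the same 20 Mb of chromosome 12 (40 to 60 Mb) also lay above all genes, by 0.42 in siOGA, 0.39 in siP300 and 0.41 in siP300+OGA, and COL2A1 kept its calls against siNC with these regional medians removed.

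The type V and type XXVII chains were low throughout. COL5A1, which with COL5A2 sets the width of type I fibrils, averaged 1.34 ± 0.12 FPKM in siOGA, 1.55 ± 0.14 in siP300, 0.709 ± 0.012 in siP300+OGA and 1.32 ± 0.050 in siNC. It fell in siP300+OGA against siNC (-0.44, adjusted p = 0.000175) and against siP300 (-0.58), and did not pass in siOGA (0.02) or siP300 (0.14). In siOGA it passed with regional medians removed (0.28, adjusted p = 0.00169), and in siP300 it passed in 3 alternatives, at 0.14 to 0.28. COL5A2 averaged 1.34 ± 0.12 FPKM in siOGA, 1.35 ± 0.16 in siP300, 0.731 ± 0.12 in siP300+OGA and 0.620 ± 0.24 in siNC and rose in siOGA (0.54, adjusted p = 0.00118) and siP300 (0.54), with siP300+OGA at 0.10 and not passed. COL27A1, a fibrillar collagen of cartilage, averaged 1.28 ± 0.21 FPKM in siOGA, 1.43 ± 0.13 in siP300, 2.40 ± 0.17 in siP300+OGA and 2.14 ± 0.13 in siNC. It fell in siOGA (-0.47) and siP300 (-0.37) against siNC, and in siP300+OGA it was 0.48 above siP300 (adjusted p = 0.000486).

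The expressed type IV collagens rose in every group against siNC. All 3 expressed type IV genes of 6 were called higher in siOGA, siP300 and siP300+OGA (medians 0.75, 0.89 and 0.46), and all 3 were lower in siP300+OGA than in siP300 (median -0.46). Of all tested genes 34%, 30.2% and 30.8% rose against siNC in that order, and 21.2% fell in siP300+OGA against siP300. COL4A5, 1 of the 3, averaged under 1 FPKM in siNC. COL4A1 (ENSG00000187498, chromosome 13, 110148963 to 110307157, minus strand), which pairs with COL4A2 in the common type IV network, had 5.46, 5.44 and 4.94 FPKM in siOGA, 6.02, 6.21 and 5.46 in siP300, 4.12, 4.06 and 4.24 in siP300+OGA, and 2.79, 2.80 and 2.58 in siNC. COL4A2 (ENSG00000134871, chromosome 13, 110305812 to 110513209, plus strand) had 5.48, 5.65 and 4.64 FPKM in siOGA, 4.84, 5.03 and 4.70 in siP300, 3.21, 3.29 and 3.29 in siP300+OGA, and 1.91, 2.24 and 1.74 in siNC. For both genes every siNC library lay below every other library, and siP300+OGA lay between siNC and the other groups. COL4A1 was higher by 0.75, 0.89 and 0.46 in siOGA, siP300 and siP300+OGA, and COL4A2 by 1.08, 0.99 and 0.53, in the same order (adjusted p at most 7.84e-05). In siP300+OGA against siP300 the differences were -0.42 and -0.46, and with the median of their chromosome region removed they were -0.17 and -0.20 and no longer passed.

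The 2 genes share the 126-base stretch printed above and overlap each other in the table's coordinates, so their reads may have been split between them if strand was not used in counting, which no label states. COL4A5 (ENSG00000188153, chromosome X, 108439838 to 108697545, plus strand), a chain of the type IV network of kidney and other specialised basement membranes, averaged 1.87 ± 0.16 FPKM in siOGA, 2.46 ± 0.36 in siP300, 1.27 ± 0.14 in siP300+OGA and 0.864 ± 0.021 in siNC. It rose by 0.62 in siOGA, 0.89 in siP300 and 0.28 in siP300+OGA, against siNC, the last of which did not pass without siP300+OGA replicate 1 (0.23). COL4A6, on the other side of the COL4A5 start, averaged 1.56 ± 0.20 FPKM in siOGA, 0.864 ± 0.14 in siP300, 0.480 ± 0.061 in siP300+OGA and 0.151 ± 0.033 in siNC, and all 12 of its values lay under 2 FPKM. COL4A3 and COL4A4, the third such pair, averaged under 0.2 FPKM in every group.

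Of the other 27 collagens 8 were expressed: 5 rose and 2 fell in siOGA, 4 rose and 1 fell in siP300, and 3 rose and none fell in siP300+OGA, against siNC. Of all tested genes 34%, 30.2% and 30.8% rose and 32.9%, 35.7% and 30.2% fell, in the same order. COL14A1 and COL23A1, 2 of the 8, averaged under 1 FPKM in siNC. COL6A1 and COL6A2 encode chains of the beaded microfibrils of type VI collagen and lie next to each other on chromosome 21. COL6A2 (ENSG00000142173, chromosome 21, 46098112 to 46132848, plus strand) had 7.27, 7.83 and 6.86 FPKM in siOGA, 15.3, 14.8 and 13.7 in siP300, 14.2, 14.5 and 14.3 in siP300+OGA, and 12.9, 13.1 and 12.6 in siNC. All siOGA libraries lay below all others, with a log2 difference of -0.74 (SE 0.049, adjusted p = 2.1e-07) against siNC. COL6A1 had 36.1, 33.9 and 29.8 FPKM in siOGA, 23.4, 24.4 and 23.0 in siP300, 30.6, 29.4 and 29.3 in siP300+OGA, and 34.9, 35.0 and 30.6 in siNC. For COL6A1 the siP300 libraries were the lowest and siOGA overlapped siNC, with log2 differences of -0.49 in siP300 (adjusted p = 7.19e-05) and -0.01 in siOGA (not passed). The COL6A1 to COL6A2 ratio was 4.55 ± 0.36 in siOGA, 1.62 ± 0.083 in siP300, 2.08 ± 0.075 in siP300+OGA and 2.60 ± 0.16 in siNC (SD, n = 3 each), with no overlap between groups.

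The rise of COL6A2 in siP300 was small (0.17), and that in siP300+OGA (0.15, adjusted p = 0.0239) was lost in 6 of the 23 alternatives, among them without siNC replicate 1 (0.15) or 3 (0.13) without siP300+OGA replicate 2 (0.14) or 3 (0.15), and with regional medians removed (0.07). COL6A1 in siP300+OGA (-0.16) did not pass against siNC, passed in 8 alternatives, and was higher than in siP300 (0.32). COL6A3, the usual partner of these chains and named after its values were seen, averaged 0.0918 FPKM in siOGA, 0.118 in siP300, 0.0171 in siP300+OGA and 0.0146 in siNC.

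COL26A1, a short nonfibrillar collagen with an EMI domain (ENSG00000160963, chromosome 7, 101362875 to 101559024, plus strand), had 24.9, 28.8 and 22.5 FPKM in siOGA, 13.4, 12.7 and 12.8 in siP300, 13.6, 12.8 and 15.2 in siP300+OGA, and 13.4, 14.1 and 12.2 in siNC. The siOGA libraries lay above all others and the other groups overlapped. It rose by 0.89 (SE 0.086, adjusted p = 4.14e-06) in siOGA, and was at -0.02 in siP300 and 0.06 in siP300+OGA, which did not pass. COL7A1, which forms the anchoring fibrils under epithelia (ENSG00000114270, chromosome 3, 48564073 to 48595329, minus strand), had 1.67, 1.97 and 1.41 FPKM in siOGA, 3.73, 3.48 and 3.48 in siP300, 4.54, 4.63 and 4.73 in siP300+OGA, and 1.22, 1.47 and 1.12 in siNC. The siP300+OGA libraries were the highest, with siP300 next, and siOGA overlapped siNC. Its log2 differences against siNC were 0.24 in siOGA, 1.01 (SE 0.079, adjusted p = 6.61e-07) in siP300 and 1.32 (SE 0.079, adjusted p = 1.21e-07) in siP300+OGA, and siP300+OGA was 0.30 above siP300. The siOGA call (adjusted p = 0.0196) was lost without siNC replicate 1 (0.23) or 3 (0.19), without siOGA replicate 2 (0.16), and with the compared groups alone. Against siP300, the siP300+OGA call was lost with regional medians removed (0.18).

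COL9A3, a cartilage collagen that decorates fibrils, averaged 24.3 ± 4.1 FPKM in siOGA, 29.6 ± 2.4 in siP300, 33.2 ± 0.65 in siP300+OGA and 34.8 ± 3.9 in siNC. It fell in siOGA against siNC (-0.51, SE 0.11, adjusted p = 0.00219) and did not pass in siP300 (-0.22) or siP300+OGA (-0.06). It did pass in siP300 in 4 alternatives, among them with regional medians removed (-0.29) and without siNC replicate 3 (-0.32) or siOGA replicate 3 (-0.22), and in siP300+OGA with regional medians removed (-0.33, adjusted p = 0.00741). The lower siOGA level against siP300 (-0.28, adjusted p = 0.0411) was lost in 8 alternatives, among them without siP300 replicate 1 or 2 or any 1 siP300+OGA library, and turned to 0.003 with regional medians removed. It was -0.14 without siOGA replicate 3, the library with the lowest value (19.6 FPKM, against 26.0 and 27.4 FPKM). Its partner chains were low, with COL9A1 at 0.452, 0.385, 0.156 and 0.0435 FPKM and COL9A2 at 0.445, 1.73, 1.15 and 0.370 FPKM, in siOGA, siP300, siP300+OGA and siNC.

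COL18A1, a basement membrane collagen whose end fragment is endostatin, averaged 14.8 ± 1.6 FPKM in siOGA, 16.0 ± 0.47 in siP300, 12.8 ± 0.17 in siP300+OGA and 11.5 ± 1.5 in siNC. It rose in siOGA (0.34, adjusted p = 0.00476) and siP300 (0.45), and siP300+OGA lay below siP300 (-0.30). COL14A1, which binds the surface of type I fibrils, averaged 1.96 ± 0.12 FPKM in siOGA, 1.41 ± 0.10 in siP300, 1.48 ± 0.12 in siP300+OGA and 0.488 ± 0.074 in siNC and rose in all 3 groups against siNC (1.00, 0.70 and 0.74, adjusted p at most 5.59e-06). COL23A1, a collagen that spans the cell membrane, averaged 1.60 ± 0.34 FPKM in siOGA, 1.26 ± 0.12 in siP300, 0.832 ± 0.039 in siP300+OGA and 0.927 ± 0.097 in siNC. It rose in siOGA (0.43, adjusted p = 0.00184), and in siP300 it missed the threshold (0.23, adjusted p = 0.0512) and passed in 9 alternatives. Its lower level in siP300+OGA than in siP300 (-0.30) was lost in 4 alternatives, among them without siP300 replicate 2 (-0.26) and without siP300+OGA replicate 2 (-0.29) or 3 (-0.29).

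The laminin alpha chains changed in siP300 and siP300+OGA more than in siOGA in the 2 genes with the highest control levels, and LAMA1 and LAMA5 moved in opposite directions. LAMA1, the alpha chain of the laminin first made by the embryo (ENSG00000101680, chromosome 18, 6941742 to 7117797, minus strand), had 9.34, 9.27 and 9.34 FPKM in siOGA, 3.26, 3.36 and 3.28 in siP300, 2.46, 2.66 and 2.71 in siP300+OGA, and 9.50, 9.77 and 9.27 in siNC. The siOGA and siNC libraries overlapped, siP300 lay below both, and siP300+OGA lay below siP300 in every library. The log2 difference was -1.29 (SE 0.038, adjusted p = 3.27e-10) in siP300, -1.54 (SE 0.038, adjusted p = 2.1e-10) in siP300+OGA and -0.03 in siOGA, which did not pass, each against siNC, and -0.25 in siP300+OGA against siP300 (adjusted p = 0.000279). For siOGA against siP300 the difference was itself tested and was 1.26 (SE 0.038, adjusted p = 3.52e-10).

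LAMA5, the alpha chain of most adult basement membranes and of the laminins on which pluripotent cells are grown (ENSG00000130702, chromosome 20, 62307955 to 62367312, minus strand), had 35.3, 34.4 and 33.3 FPKM in siOGA, 46.6, 47.2 and 45.9 in siP300, 45.2, 45.0 and 46.3 in siP300+OGA, and 36.7, 37.4 and 33.7 in siNC. The siP300 and siP300+OGA libraries lay above siNC and overlapped each other, and siOGA overlapped siNC. It rose in siP300 (0.37, SE 0.039, adjusted p = 7.43e-06) and siP300+OGA (0.33, SE 0.039, adjusted p = 2.2e-05), and the siP300+OGA call was lost with regional medians removed (0.06). In siOGA it stood at -0.06 and did not pass. It passed without siNC replicate 3 (-0.11), with quantile normalization (-0.14) and, with the opposite sign, with regional medians removed (0.15). Between siP300+OGA and siP300 the LAMA5 difference was -0.035 and did not pass, although it did with quantile normalization (-0.16) and with regional medians removed (-0.23). The LAMA1 to LAMA5 ratio was 0.272 ± 0.0083 in siOGA, 0.0709 ± 0.00089 in siP300, 0.0575 ± 0.0026 in siP300+OGA and 0.265 ± 0.0089 in siNC (SD, n = 3 each).

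LAMA2, the alpha chain of muscle and nerve basement membranes, averaged 1.96 ± 0.086 FPKM in siOGA, 0.834 ± 0.11 in siP300, 0.699 ± 0.015 in siP300+OGA and 1.13 ± 0.074 in siNC. It rose in siOGA (0.47), a call lost with regional medians removed (0.09), and fell in siP300 (-0.22) and siP300+OGA (-0.33). The siP300 call (adjusted p = 0.0139) was lost without siNC replicate 3 (-0.19) or siP300 replicate 3 (-0.19) and with the compared groups alone. LAMA3 and LAMA4 averaged under 1 FPKM, with LAMA3 at 0.274, 0.105, 0.0808 and 0.0970 FPKM in siOGA, siP300, siP300+OGA and siNC.

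Of the beta chains, LAMB2 rose with EP300 siRNA while LAMB1 changed little. LAMB2, the beta chain of neuromuscular and kidney basement membranes (ENSG00000172037, chromosome 3, 49121114 to 49133118, minus strand), had 6.50, 6.54 and 5.75 FPKM in siOGA, 21.0, 19.99 and 19.8 in siP300, 14.2, 14.4 and 12.9 in siP300+OGA, and 6.35, 6.23 and 5.60 in siNC. The siP300 libraries were the highest, siP300+OGA lay between, and siOGA overlapped siNC. Its log2 difference was 1.59 (SE 0.060, adjusted p = 2.07e-09) in siP300, 1.07 (SE 0.060, adjusted p = 7.09e-08) in siP300+OGA and 0.04 in siOGA, which did not pass, each against siNC, and -0.52 in siP300+OGA against siP300 (adjusted p = 3.82e-05).

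LAMB1, the beta chain of the early embryonic laminin, averaged 9.57 ± 0.36 FPKM in siOGA, 6.85 ± 0.19 in siP300, 7.21 ± 0.28 in siP300+OGA and 7.44 ± 0.16 in siNC. It rose in siOGA (0.32, SE 0.040, adjusted p = 2.88e-05), and its small fall in siP300 (-0.10, adjusted p = 0.0373) was lost in 9 alternatives, among them without siNC replicate 2 or 3, siP300 replicate 1 or 2, or siP300+OGA replicate 2 (-0.12 to -0.07 over all 23). LAMB1 overlaps DLD on the other strand, which had as many reads (100.2% of those of LAMB1), so its level is uncertain if strand was not used in counting. The same holds for COL9A3 with TCFL5 (31.1% of its reads), COL18A1 with SLC19A1 (23.7%) and LAMA5 with ADRM1 (15.2%). The LAMB2 to LAMB1 ratio was 0.656 ± 0.070 in siOGA, 2.96 ± 0.18 in siP300, 1.92 ± 0.079 in siP300+OGA and 0.814 ± 0.059 in siNC (SD, n = 3 each). On this scale LAMB2 was the lower of the pair in siOGA and siNC and the higher in siP300 and siP300+OGA. Per kilobase of the longest coding transcript LAMB2 stood at 24.5 and LAMB1 at 22.1 in siP300, and LAMB2 at 16.7 and LAMB1 at 23.3 in siP300+OGA, so that order did not hold for siP300+OGA.

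LAMB3, the beta chain of the laminin of epithelial anchoring (ENSG00000196878, chromosome 1, 209614870 to 209652425, minus strand), had 0.724, 1.09 and 1.23 FPKM in siOGA, 2.60, 2.32 and 2.45 in siP300, 0.898, 0.791 and 0.972 in siP300+OGA, and 2.82, 2.87 and 2.82 in siNC. The siOGA and siP300+OGA libraries were low and overlapped each other, and the siP300 libraries lay just below siNC. It fell in siOGA (-0.94, SE 0.089, adjusted p = 3.53e-06) and siP300+OGA (-1.03, SE 0.089, adjusted p = 2.2e-06), did not pass in siP300 (-0.15, adjusted p = 0.155), and was lower in siP300+OGA than in siP300 (-0.87). The siP300 difference passed in 3 alternatives: with regional medians removed (-0.30, adjusted p = 0.00789), with quantile normalization (-0.225) and in a fit of the 2 groups alone (-0.15).

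**Figure D3:**
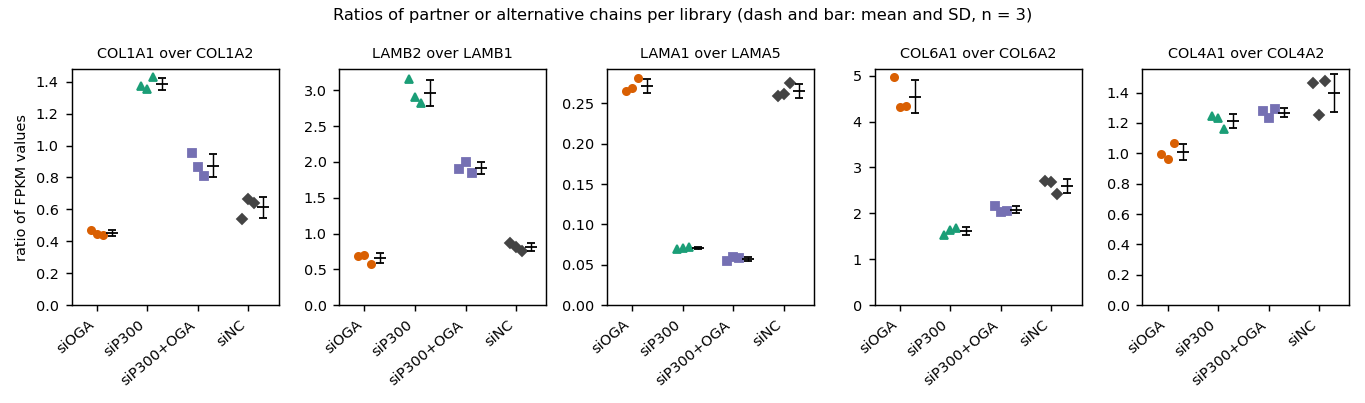
Ratio of FPKM values between partner or alternative chains in each library, in 5 panels with axes that start at 0, with the mean and SD of each group of 3 drawn as a dash and bar beside its points. The siP300 libraries have the highest COL1A1 to COL1A2 and LAMB2 to LAMB1 ratios (means 1.38 and 2.96), and both siP300 and siP300+OGA have a LAMA1 to LAMA5 ratio under 0.08.

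Of the gamma chains, LAMC3 fell in each group against siNC, and LAMC1 rose in siOGA and fell in the other groups. LAMC1 (ENSG00000135862, chromosome 1, 183023420 to 183145592, plus strand) had 69.8, 68.2 and 70.7 FPKM in siOGA, 46.5, 50.4 and 49.8 in siP300, 51.5, 52.4 and 49.4 in siP300+OGA, and 55.8, 57.0 and 56.4 in siNC. The siOGA libraries lay above siNC, and siP300 and siP300+OGA lay below it and overlapped each other. It rose in siOGA (0.30, SE 0.034, adjusted p = 1.7e-05), a call lost with regional medians removed (0.04), and fell in siP300 (-0.20) and siP300+OGA (-0.14), the siP300 call being lost with quantile normalization (-0.04).

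LAMC3, a less common gamma chain, averaged 2.71 ± 0.30 FPKM in siOGA, 2.82 ± 0.093 in siP300, 1.91 ± 0.10 in siP300+OGA and 3.80 ± 0.080 in siNC, and fell in all 3 groups against siNC (-0.37, -0.33 and -0.72), with siP300+OGA below siP300 (-0.39). Its siOGA call was lost with regional medians removed (-0.11).

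FN1 was high in siOGA alone among the groups. FN1 (ENSG00000115414, chromosome 2, 215360440 to 215436073, minus strand) had 45.9, 43.6 and 47.1 FPKM in siOGA, 13.4, 14.9 and 14.1 in siP300, 13.1, 13.8 and 13.1 in siP300+OGA, and 16.0, 15.6 and 15.4 in siNC. All siOGA libraries lay above 43 FPKM and all others under 17 FPKM, and siP300 overlapped siP300+OGA. The log2 difference in siOGA against siNC was 1.48 (SE 0.044, adjusted p = 5.83e-10), a 2.90-fold ratio of means, and against siP300 it was 1.62 (SE 0.044, adjusted p = 1.67e-10). FN1 fell in siP300+OGA (-0.22, adjusted p = 0.00124) and by a small amount in siP300 (-0.14, adjusted p = 0.0129), the second of which was lost without siP300 replicate 1 (-0.11) and with quantile normalization (-0.07). Between siP300+OGA and siP300 the difference was -0.07 and did not pass, although it did with quantile normalization, with regional medians removed (both -0.13) and with voom (-0.11).

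Several of these genes lie in chromosome regions whose genes moved together, and values are therefore also given after subtracting the regional median, taken over 20 Mb. The 59 tested genes at 40 to 60 Mb of chromosome 21, which hold COL6A1, COL6A2 and COL18A1, lay 0.45 below all genes in siOGA against siNC. With that median removed COL6A1 stood at 0.45 and COL18A1 at 0.80, both higher, and COL6A2 at -0.28. The regions of LAMC1 (chromosome 1, 180 to 200 Mb) and of LAMA2 (chromosome 6, 120 to 140 Mb) lay 0.23 and 0.39 above all genes in siOGA, and that of LAMC3 and COL5A1 (chromosome 9, 120 to 140 Mb) 0.25 below. In siP300+OGA against siNC the region of LAMA5 and COL9A3 (chromosome 20, 60 to 80 Mb) lay 0.30 above. Against siP300, the region of COL4A1 and COL4A2 (chromosome 13, 100 to 120 Mb) lay 0.24 below in siP300+OGA. COL1A1, COL1A2, COL2A1, FN1, LAMA1 in siP300 and siP300+OGA, and LAMB2 in the same 2 groups kept their calls against siNC.

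**Figure D4:**
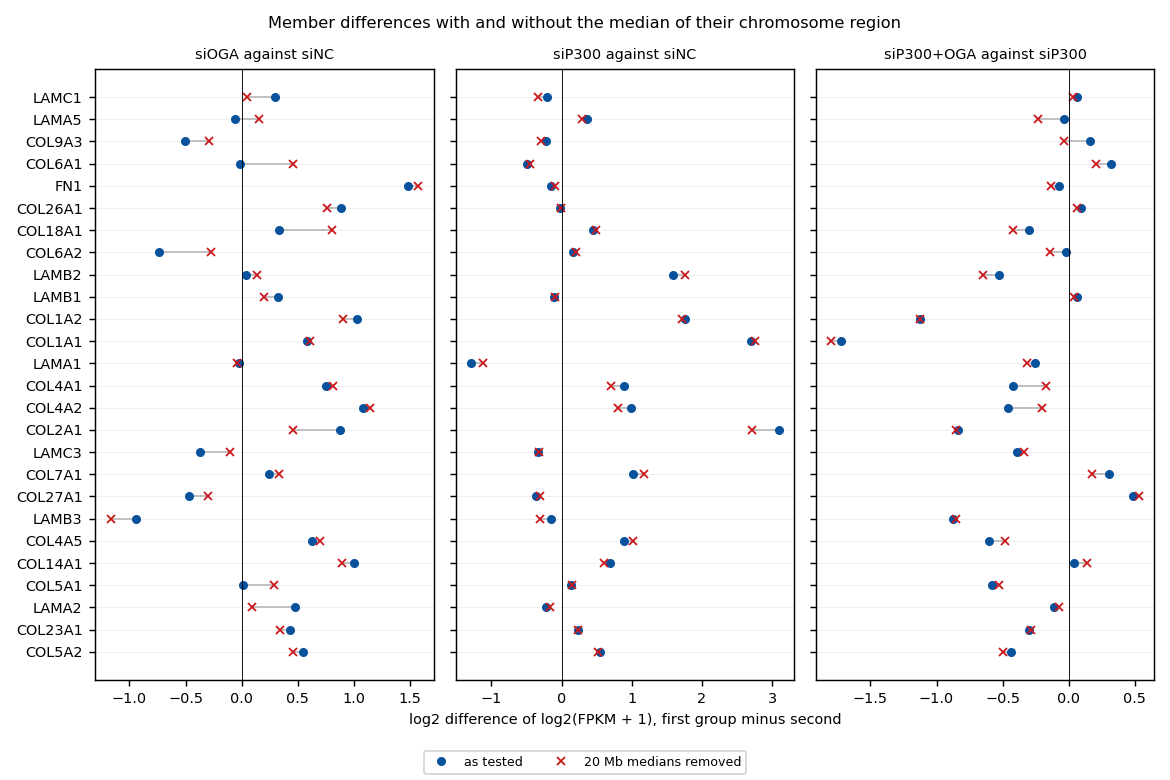
Differences of log2(FPKM + 1) for 26 expressed genes in 3 comparisons, first group minus second, as tested (points) and after subtracting the median over its 20 Mb (crosses), joined by a line per gene. In siOGA against siNC the longest lines belong to COL6A1, COL18A1 and COL6A2, and in siP300+OGA against siP300 those of COL4A1 and COL4A2 shorten towards 0.

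The 30 genes under 1 FPKM summed to 9.68 ± 0.67 FPKM in siOGA, 8.85 ± 0.23 in siP300, 6.23 ± 0.27 in siP300+OGA and 4.48 ± 0.080 in siNC (SD, n = 3 each). Of these 30 genes, 24 averaged under 0.3 FPKM and 4 under 0.01 FPKM (COL15A1, COL19A1, COL6A5 and LAMB4), and COL15A1 was listed at 0 in every siNC library. In a fit with no minimum, 12 of the 30 were called higher and 2 lower in siOGA against siNC, where 14% of 40838 genes were higher and 12.9% lower. In siP300 11 were higher and 2 lower (14% and 13.3% of all), and in siP300+OGA 5 were higher and 1 lower (11.4% and 11% of all), against siNC. In siP300+OGA against siP300, 1 was higher and 10 lower (8.08% and 8.65% of all), and in siOGA against siP300 6 were higher and 5 lower (15.7% and 16.5% of all).

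Among the 6 of these 30 with a mean of at least 0.3 FPKM, COL4A6 rose in siOGA (1.15, adjusted p = 3.53e-06), siP300 (0.69) and siP300+OGA (0.36). COL9A2 rose in siP300 (0.99, adjusted p = 1.56e-06) and siP300+OGA (0.65). COL11A1, a minor chain of cartilage fibrils, averaged 0.446 ± 0.0021 FPKM in siOGA, 0.818 ± 0.087 in siP300, 0.113 ± 0.013 in siP300+OGA and 0.132 ± 0.029 in siNC, and it rose in siP300 (0.68) and siOGA (0.35), with siP300+OGA below siP300 (-0.71). COL5A3, another type V chain, averaged 1.22 ± 0.057 FPKM in siOGA, 0.600 ± 0.066 in siP300, 0.487 ± 0.095 in siP300+OGA and 0.535 ± 0.11 in siNC and rose in siOGA (0.53, adjusted p = 0.000563). COL25A1, a collagen that spans the membrane of neurons, averaged 1.34 ± 0.13 FPKM in siOGA, 0.238 ± 0.082 in siP300, 0.529 ± 0.024 in siP300+OGA and 0.464 ± 0.061 in siNC, rising in siOGA (0.68) and falling in siP300 (-0.24, adjusted p = 0.0412). COL28A1, a collagen with von Willebrand factor domains, averaged 0.481 ± 0.046 FPKM in siOGA, 0.268 ± 0.063 in siP300, 0.382 ± 0.12 in siP300+OGA and 0.834 ± 0.065 in siNC and fell in siOGA (-0.31), siP300 (-0.53) and siP300+OGA (-0.41). COL12A1 and COL3A1, named after their values were seen, were highest in siP300, at 0.428 and 0.476 FPKM. They stood at 0.303 and 0.207 FPKM in siOGA, 0.0246 and 0.0522 FPKM in siP300+OGA and 0.0268 and 0.127 FPKM in siNC. COL12A1 also rose in siOGA against siNC (0.34, adjusted p = 0.000253), and siOGA against siP300 did not pass (-0.13, adjusted p = 0.0532).

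Genes that modify and fold collagen chains in the endoplasmic reticulum were called more often higher than lower against siNC. Of 19 such genes 16 were tested: 10 rose and none fell in siOGA, 8 rose and 5 fell in siP300, and 7 rose and 4 fell in siP300+OGA, against siNC, with medians of 0.21, 0.10 and 0.05 (0.00, -0.04 and 0.00 for all genes). Of all genes tested, 66.9% were called in siOGA, 65.9% in siP300 and 60.9% in siP300+OGA, so the share called in siOGA lay near that of all genes. By direction, 34%, 30.2% and 30.8% of all genes rose and 32.9%, 35.7% and 30.2% fell. FKBP10, a prolyl isomerase of collagen, averaged 11.6 ± 1.2 FPKM in siOGA, 25.9 ± 0.38 in siP300, 15.2 ± 0.94 in siP300+OGA and 3.88 ± 0.23 in siNC. It rose by 1.36 in siOGA, 2.46 in siP300 and 1.73 in siP300+OGA, and was -0.74 in siP300+OGA against siP300. SERPINH1, the collagen chaperone also called HSP47, averaged 128 ± 5.0 FPKM in siOGA, 119 ± 2.6 in siP300, 149 ± 0.88 in siP300+OGA and 74.8 ± 2.3 in siNC and rose in all 3 groups (0.76, 0.66 and 0.99, adjusted p at most 2.06e-08). P3H4, a member of the prolyl hydroxylase family, rose in siP300 (1.47) and siP300+OGA (0.91), P3H3 in siOGA (1.06), and COLGALT1, a collagen galactosyltransferase, fell in siP300+OGA (-0.68). Against siP300, 3 rose and 8 fell in siP300+OGA, where 27% of all genes rose and 21.2% fell. The 3 became 1 without siP300 replicate 2 or siP300+OGA replicate 2.

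Of 14 genes that process or crosslink secreted collagen 8 were tested: 5 rose and 1 fell in siOGA, 7 rose and 1 fell in siP300, and 5 rose and 1 fell in siP300+OGA, against siNC (medians 0.41, 0.42 and 0.34), where 66.9%, 65.9% and 60.9% of all genes were called. With 8 genes tested, the shares called in siOGA and siP300+OGA lay within 2 genes of those of all genes. LOXL1, a lysyl oxidase, averaged 1.36 ± 0.12 FPKM in siOGA, 5.81 ± 0.033 in siP300, 1.62 ± 0.31 in siP300+OGA and 0.975 ± 0.071 in siNC and rose by 1.79 in siP300, with -1.39 in siP300+OGA against siP300. LOXL3, another lysyl oxidase, averaged 0.593 ± 0.16 FPKM in siOGA, 2.66 ± 0.083 in siP300, 3.34 ± 0.22 in siP300+OGA and 0.697 ± 0.054 in siNC and rose in siP300 (1.11) and siP300+OGA (1.35). ADAMTS2, which removes the front propeptide of type I collagen, averaged 4.86 ± 0.31 FPKM in siOGA, 1.40 ± 0.14 in siP300, 1.43 ± 0.18 in siP300+OGA and 2.09 ± 0.26 in siNC and rose in siOGA (0.93, adjusted p = 1.98e-06) and fell in siP300 (-0.36) and siP300+OGA (-0.35). The count of 1 lower in siOGA became 2 without siOGA replicate 1.

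Of 22 receptor genes 11 were tested: 8 rose and 3 fell in siOGA, 9 rose and 2 fell in siP300, and 9 rose and 1 fell in siP300+OGA, against siNC (medians 0.57, 1.25 and 0.59), where 34%, 30.2% and 30.8% of all genes rose and 32.9%, 35.7% and 30.2% fell. In siP300+OGA against siP300, 3 rose and 7 fell (median -0.46), where 27% of all genes rose and 21.2% fell. ITGA5, which with ITGB1 forms the main fibronectin receptor, averaged 3.37 ± 0.15 FPKM in siOGA, 7.77 ± 0.26 in siP300, 2.66 ± 0.19 in siP300+OGA and 1.47 ± 0.24 in siNC. It was highest in siP300 (1.83 against siNC), and it rose in siOGA by 0.83. BCAM, a receptor for laminin alpha 5, averaged 8.20 ± 0.87 FPKM in siOGA, 11.3 ± 0.67 in siP300, 6.75 ± 0.31 in siP300+OGA and 2.99 ± 0.23 in siNC and rose in all 3 groups (1.20, 1.62 and 0.96). ITGA3 and ITGA7, laminin receptors, rose by 1.57 and 1.53 in siP300, and ITGA9, an integrin alpha chain, rose in siOGA (0.35) and fell in siP300 (-1.33) and siP300+OGA (-1.11).

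Of 14 other basement membrane genes 9 were tested: 6 rose and 1 fell in siOGA, 7 rose and none fell in siP300, and 5 rose and 1 fell in siP300+OGA, against siNC (medians 0.44, 0.49 and 0.15), where 34%, 30.2% and 30.8% of all genes rose. Against siP300, none rose and 7 fell in siP300+OGA, where 21.2% of all genes fell. HSPG2, the proteoglycan perlecan, averaged 12.6 ± 0.23 FPKM in siOGA, 5.92 ± 0.12 in siP300, 3.64 ± 0.066 in siP300+OGA and 3.89 ± 0.41 in siNC and rose by 1.47 in siOGA. SPARC, which binds collagen, averaged 115 ± 1.9 FPKM in siOGA, 161 ± 1.7 in siP300, 114 ± 0.36 in siP300+OGA and 84.6 ± 1.6 in siNC, and rose by 0.92 in siP300, with -0.50 in siP300+OGA against siP300. NTN4, a netrin that binds laminin, rose in siOGA (1.24), and NID1, nidogen, which links laminin to type IV collagen, in siOGA (0.71), siP300 (0.42) and siP300+OGA (0.45). The count of 1 lower in siP300+OGA became 2 without siNC replicate 3, and that of 0 in siP300 became 1 without siNC replicate 3, siOGA replicate 2 or siP300+OGA replicate 3.

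Some markers of other cell types also differed between groups. The cultures stood on mouse fibroblasts, and fibroblasts are a main source of type I collagen and fibronectin. A list of 12 fibroblast genes without the genes described above summed to 8.33 to 9.15 FPKM in siOGA, 11.8 to 12.6 in siP300, 8.15 to 9.34 in siP300+OGA and 3.06 to 3.32 in siNC. Of these 12, THY1 and TWIST1 averaged at least 1 FPKM and made up most of the sums. In siOGA, siP300, siP300+OGA and siNC, THY1 averaged 4.76, 3.51, 6.51 and 0.277 FPKM and TWIST1 2.85, 6.76, 0.912 and 1.76 FPKM. THY1 and TWIST1 rose in siOGA and in siP300 against siNC, and in siP300+OGA THY1 rose and TWIST1 fell. For siOGA, siP300 and siP300+OGA, 34%, 30.2% and 30.8% of all tested genes rose and 32.9%, 35.7% and 30.2% fell. PDGFRB averaged 0.343, 0.576, 0.0269 and 0.0417 FPKM in the same order. DPT was at 0 in every library, and no library exceeded 0.0217 FPKM for DCN, 0.143 for LUM, 0.134 for POSTN or 0.0205 for PRRX1. A trophectoderm and amnion list of 12 genes summed to 9.68 to 11.2 FPKM in siOGA, 112 to 120 in siP300, 83.6 to 86.7 in siP300+OGA and 12.1 to 13.6 in siNC, with CDX2 and TFAP2B under 0.2 FPKM. KRT19, an epithelial keratin, made up most of the sums in siP300 and siP300+OGA. Of the 4 members of the list tested, 1 rose and 1 fell in siOGA, 4 rose in siP300, and 2 rose and 1 fell in siP300+OGA, against siNC. Of all tested genes 34%, 30.2% and 30.8% rose and 32.9%, 35.7% and 30.2% fell, in the same order. KRT19 differed from siNC by -0.45 in siOGA, 3.24 in siP300 and 3.03 in siP300+OGA. CGA, a placental hormone chain, rose in siP300 (2.26) and fell in siP300+OGA (-1.01). GATA2, a factor of trophoblast, averaged 0.483 ± 0.0056 FPKM in siOGA, 2.98 ± 0.26 in siP300, 0.540 ± 0.046 in siP300+OGA and 0.449 ± 0.056 in siNC. GATA3, another such factor, averaged 0.135 ± 0.063 FPKM in siOGA, 2.20 ± 0.047 in siP300, 0.182 ± 0.023 in siP300+OGA and 0.301 ± 0.12 in siNC. A hypoblast and endoderm list of 12 genes summed to 7.34 to 8.18, 4.27 to 4.98, 1.40 to 3.33 and 2.27 to 2.81 FPKM in siOGA, siP300, siP300+OGA and siNC. SOX17 and FOXA2 stayed under 0.4 FPKM in that list. Its 1 member tested, CER1, an inhibitor of Nodal, averaged 1.79 ± 0.096 FPKM in siOGA, 2.82 ± 0.42 in siP300, 0.747 ± 0.49 in siP300+OGA and 0.366 ± 0.054 in siNC and rose in siOGA (1.03, adjusted p = 0.00016) and siP300 (1.48, adjusted p = 9.04e-06). APOA1 averaged 2.32 ± 0.25 FPKM in siOGA, 0.298 ± 0.096 in siP300, 0.214 ± 0.096 in siP300+OGA and 0.669 ± 0.11 in siNC, and AFP 1.40 ± 0.081 FPKM in siOGA, 0.0337 ± 0.017 in siP300, 0.0855 ± 0.047 in siP300+OGA and 0.0236 ± 0.027 in siNC. Of 9 naive markers present 8 were tested, and 7 fell in siOGA, 8 in siP300 and 8 in siP300+OGA against siNC, where 32.9%, 35.7% and 30.2% of all genes fell. In siP300+OGA against siP300, 4 rose and 2 fell, where 27% of all genes rose and 21.2% fell. Their sums were 808 to 863, 503 to 505, 659 to 681 and 1275 to 1321 FPKM in siOGA, siP300, siP300+OGA and siNC. The part of any of these in the collagen, laminin and fibronectin values was not tested.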

How the data were processed

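RNA was selected by poly(A) and made into libraries that keep strand by dUTP, with UMI adapters and paired reads of 150 bases, per the labels' protocols. The submitters' processing notes name StringTie 1.3.4d, HISAT2 2.0.4, UMI-tools, cutadapt 1.9, edgeR and DESeq2, and the build GRCh38, without their roles. The authors deposited FPKM per gene for each library, and coordinates are those of that table. No source used here states whether strand was used in counting.

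FPKM values of low genes gave whole reads within 0.01, and these recovered reads served depth and a voom alternative only. Genes averaging 1 FPKM or more were compared as log2(FPKM + 1) with limma 3.58.1 in R 4.3.3, in 1 fit over all 4 groups with 8 residual degrees of freedom. The fit was run on simulated data with far fewer changed genes than were called here, so that run does not measure its error rate in these data. Adjusted p is Benjamini-Hochberg over all genes tested. In 18 pairs of same-numbered libraries, deviations from group means correlated between -0.058 and 0.131. The highest was between siNC 3 and siOGA 3, and pairs of different number reached 0.071. These correlations cannot settle whether the numbers pair libraries, and the main fit used no pairing. Values of 1 table line were empty. The genes and lists were chosen with earlier results of these data known. Genes were named by a rule: every gene of the families averaging 1 FPKM or more, those with at least 0.3 FPKM or a group mean of at least 1 FPKM, and up to 4 called genes of each list per comparison. Regional medians were taken over 20 Mb with at least 20 tested genes. Upstream sequence is from RefSeq on GRCh38.p14. Protein sequences were not used here. Levels per coding transcript used GENCODE v29 lengths, chosen after the data were seen. The values of 1 expressed gene are counted in the totals and are not reported here.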

Additional observations from a re-analysis of the deposited data

How the results depend on the processing

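Over 23 alternatives, 12 of them leaving out 1 library each, 90 of 135 differences of the expressed genes kept their direction and their side of the threshold in every one, and 81 were called in every one. The same was true of 2867 single values, while 66 lost their call, 49 gained one and 23 turned sign, 17 of these called neither before nor after. The other 6 came with regional medians removed: LAMA5 at 0.153 and COL6A1 at 0.452 in siOGA against siNC, and COL9A3 at 0.003, COL18A1 at 0.308, COL4A1 at 0.115 and LAMC3 at 0.212 in siOGA against siP300, and the cause was not tested. Of the 17, COL27A1 at 0.004 and COL5A1 at 0.134 in siOGA against siP300 and COL9A3 at -0.035 in siP300+OGA against siP300 came with regional medians removed. With quantile normalization they were COL26A1 at 0.039 in siP300 against siNC, LAMC1 at -0.099 in siP300+OGA against siP300, and LAMC3 at 0.025, COL27A1 at 0.031 and COL5A2 at 0.121 in siOGA against siP300, and with voom COL26A1 at 0.020 in siP300 against siNC. With 1 library left out, the differences that turned ranged from -0.075 to 0.063 for COL6A1, -0.007 to 0.094 for LAMB2 and -0.012 to 0.057 for COL5A1 in siOGA against siNC, from -0.080 to 0.021 for COL26A1 in siP300 against siNC, from -0.067 to 0.010 for COL6A2 in siP300+OGA against siP300 and from -0.082 to 0.023 for LAMC3 in siOGA against siP300. With a mean of at least 5 FPKM, fewer genes were tested, and the counts of the families higher and lower were 7 and 2 in siOGA against siNC, 6 and 5 in siP300 against siNC, 5 and 4 in siP300+OGA against siNC, 1 and 5 in siP300+OGA against siP300, with 6 lower in siOGA against siP300. Over all genes that minimum gave 2744 higher and 2373 lower in siOGA against siNC, 2023 higher in siP300 against siNC, 2349 higher and 2435 lower in siP300+OGA against siNC, 1386 lower in siP300+OGA against siP300, and 3379 higher and 2206 lower in siOGA against siP300. With no minimum, the families' counts were 29 higher in siOGA and 25 higher in siP300 against siNC, 23 lower in siP300+OGA against siP300 and 14 higher in siOGA against siP300. With regional medians removed, 2 were higher in siP300+OGA against siP300. The summed FPKM without FN1 was 287.3 in siOGA, 305.7 in siP300, 273.7 in siP300+OGA and 254.4 in siNC, and without LAMC1 it was 263.3, 270.9, 235.9 and 213.7 in the same order. With median-ratio scaling the siP300 sum was 327.1. With the replicate number as a block, 17 members rose and 5 fell in siOGA and 15 rose and 8 fell in siP300, against siNC. Genes under 1 FPKM rest on few reads, and fold changes of such genes depend on the constant added.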
